A study of Bos taurus with 6 samples.

Results

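Lysyl oxidases and transglutaminases are enzymes that form covalent cross-links between proteins, among them proteins of the extracellular matrix. The genes examined were LOX, LOXL1, LOXL2, LOXL3 and LOXL4 on the one side and TGM1, TGM2, TGM3 and F13A1 on the other, 9 genes out of 20074 distinct symbol entries of the deposited array table. They were taken by exact gene symbol, and each was measured by 1 of the 26773 rows, called transcript clusters here. A transcript cluster is a set of probes that as a rule stands for a gene. The rows include 82 reporter controls, which do not. The genes were chosen by their log2 signals at high and normal density in these same arrays, together with their shared function. For that reason the changes of the 9 genes are given as a description, without p-values.

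RNA came from 6 cultures of primary bovine granulosa cells (GC), with 1 Bovine Gene 1.0 ST Array per culture. At normal density 100000 cells were plated per well, at high density 1000000, with 3 cultures each. Culture lasted 9 days in all 6 cases, in serum-free alpha-MEM on collagen-coated plates. The hormones were likewise shared, namely 20 ng/ml of FSH, 50 ng/ml of IGF-1 and 2 μM of the androgen androstenedione, beside insulin, transferrin, selenite and albumin. The cells were aspirated from small and medium follicles of abattoir ovaries, pooled over many cows and frozen before use, so a replicate is a cell pool and not an animal. Whether cultures with the same replicate number came from the same pool is not stated.

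Lysyl oxidases are secreted, copper-dependent amine oxidases. They convert lysine residues of collagen and elastin into reactive aldehydes that then condense into cross-links, which makes the fibres insoluble and stiff. Transglutaminases are calcium-dependent enzymes that join glutamine to lysine side chains and thereby link fibrin, fibronectin and proteins of the skin barrier. In the ovary the matrix around GC is rebuilt when the follicle grows and again when it turns into the corpus luteum.

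The values are log2 signals from the authors' RMA procedure. A level of 4.62, the 95th percentile of the 82 reporter control rows of the table, was taken as the background level. In 51.2% of all transcript clusters both group means were at or below it, and array medians ranged from 4.34 to 4.43. In single arrays the 95th percentile ranged from 4.40 in high density replicate 2 to 4.92 in high density replicate 1. Called stands here for a difference of more than 1.5-fold between the densities with both a p-value and a Benjamini-Hochberg adjusted p-value from limma below 0.05, the thresholds of the study's methods. By this rule 7.49% of all transcript clusters were called, 3.97% as higher and 3.51% as lower at high density.

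Of the 9 genes 5 were called, all of them higher at high density, and none was called lower. The 5 were LOX, LOXL1, LOXL2, LOXL4 and TGM2, and the same 5 had signals that did not overlap between the densities, which was the case in 37.3% of all transcript clusters (17.8% with high density above). LOXL3, TGM1, TGM3 and F13A1 were not called, and their groups overlapped. The median log2 fold change, high minus normal density, was 0.77 over the 9 genes and 0.02 over all transcript clusters. As the genes were chosen with this contrast known, nothing is read from these counts.

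**Figure D1:**
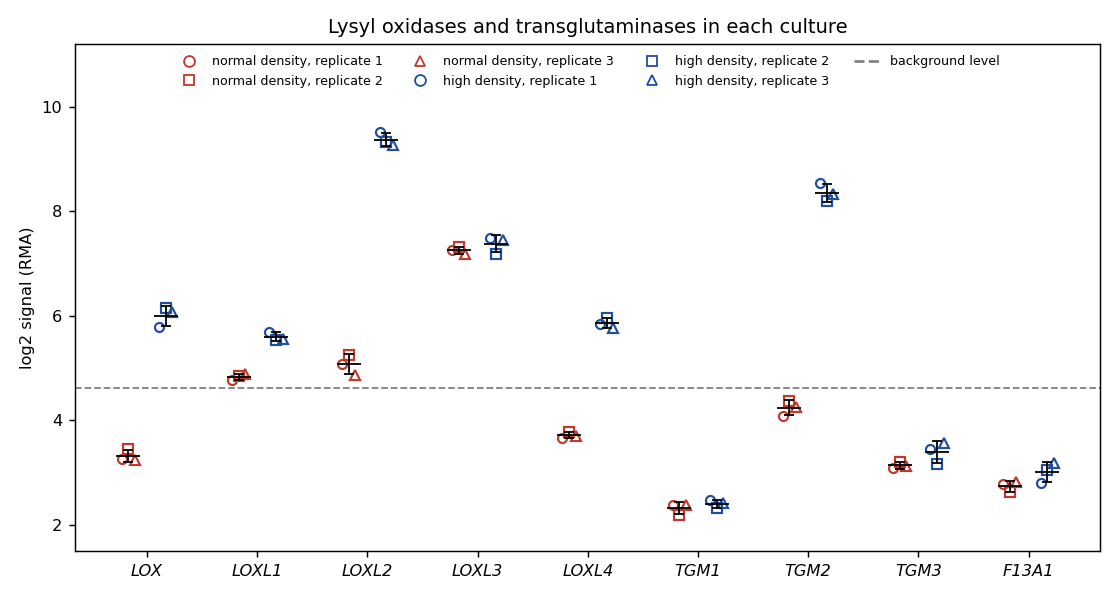
Log2 RMA signal (vertical axis) of the 9 genes in each of the 6 cultures. Red symbols are normal density and blue symbols high density cultures, symbol shape gives the replicate, horizontal bars are group means with SD (n = 3), and the dashed line is the background level of 4.62. The high density cultures lie apart from the normal density cultures for LOX, LOXL1, LOXL2, LOXL4 and TGM2, whereas TGM1, TGM3 and F13A1 stay below the dashed line in all cultures.

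Among the lysyl oxidases, LOX is the founding member and acts on fibrillar collagen and elastin. Its log2 signal (transcript cluster 12876752) was 3.26, 3.45 and 3.24 in normal density replicates 1 to 3 and 5.78, 6.15 and 6.06 in the high density replicates. All normal density signals were below the background level and all high density signals above it. The group means were 3.31 ± 0.12 and 6.0 ± 0.19 (SD, n = 3), a log2 difference of 2.68 (standard error, SE, 0.11). As the normal density signal is bounded by the background, the gene was at least 2.60-fold higher at high density.

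LOXL2, which cross-links collagens including that of basement membranes, ranked 3 among all rises in the table by difference of the means. Its signal (12894529) was 5.08, 5.26 and 4.87 at normal density and 9.51, 9.32 and 9.27 at high density. Every culture was above the background level, although normal density replicate 3 was below the stricter level of 4.92 that the 99th percentile of the control rows gives. The means of 5.07 ± 0.19 and 9.37 ± 0.13 (SD, n = 3) differed by 4.30 on the log2 scale (SE 0.12), a 19.7-fold difference. The lowest high density culture exceeded the highest normal density culture by 4.02.

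LOXL4, like LOXL2 and LOXL3 a lysyl oxidase with scavenger receptor domains, had signals (12821440) of 3.66, 3.78 and 3.70 at normal density and of 5.85, 5.96 and 5.76 at high density. As for LOX, all normal density cultures were below and all high density cultures above the background level. The means were 3.71 ± 0.06 and 5.86 ± 0.10 (SD, n = 3), a log2 difference of 2.15 (SE 0.08), and the gene was at least 2.36-fold higher at high density.

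LOXL1, which serves the maintenance of elastic fibres, showed the smallest of the called changes. Its signal (12791675) was 4.76, 4.85 and 4.88 at normal density and 5.70, 5.54 and 5.56 at high density, above the background level throughout, with the normal density signals below the stricter 99th percentile level. The means of 4.83 ± 0.06 and 5.60 ± 0.09 (SD, n = 3) differed by 0.77 (SE 0.08), a 1.70-fold difference. The gap between the groups was 0.66, so the groups were apart although the change was small. With a threshold of 2-fold in place of 1.5-fold LOXL1 was not called.

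LOXL3, in contrast, was at a similar level in both densities. Its signal (12702441) was 7.26, 7.31 and 7.18 at normal density and 7.49, 7.19 and 7.44 at high density. High density replicate 2 lay among the normal density cultures, and replicates 1 and 3 lay above them. The means of 7.25 ± 0.07 and 7.37 ± 0.16 (SD, n = 3) differed by 0.12 (SE 0.10). All its signals were well above the background level, so that both of its means were measured.

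Of the transglutaminases TGM2, the tissue transglutaminase that is found inside cells as well as bound to fibronectin and integrins at the cell surface, was the one that was called. Its signal (12718011) was 4.09, 4.37 and 4.26 at normal density and 8.54, 8.19 and 8.32 at high density. The normal density cultures were all below the background level and the high density cultures far above it. The means of 4.24 ± 0.14 and 8.35 ± 0.18 (SD, n = 3) gave a log2 difference of 4.11 (SE 0.11). Against the background level TGM2 was at least 13.3-fold higher at high density.

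TGM1 and TGM3 are the transglutaminases of keratinocytes and hair follicles, and F13A1 encodes the catalytic subunit of coagulation factor XIII, which is made by platelets and macrophages. For TGM1 (12688299) the signals were 2.39, 2.19 and 2.39 at normal density and 2.47, 2.32 and 2.41 at high density. TGM3 (12718324) had signals of 3.08, 3.20 and 3.13 at normal density and of 3.46, 3.16 and 3.56 at high density. The signals of F13A1 (12803674) were 2.78, 2.62 and 2.82 at normal density and 2.80, 3.04 and 3.18 at high density. All 3 genes were below the background level in every culture, and the groups overlapped. No linear fold is therefore given for them. The differences between signals at background level were 0.08 for TGM1 (SE 0.08), 0.26 for TGM3 (SE 0.11) and 0.27 for F13A1 (SE 0.11).

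**Figure D2:**
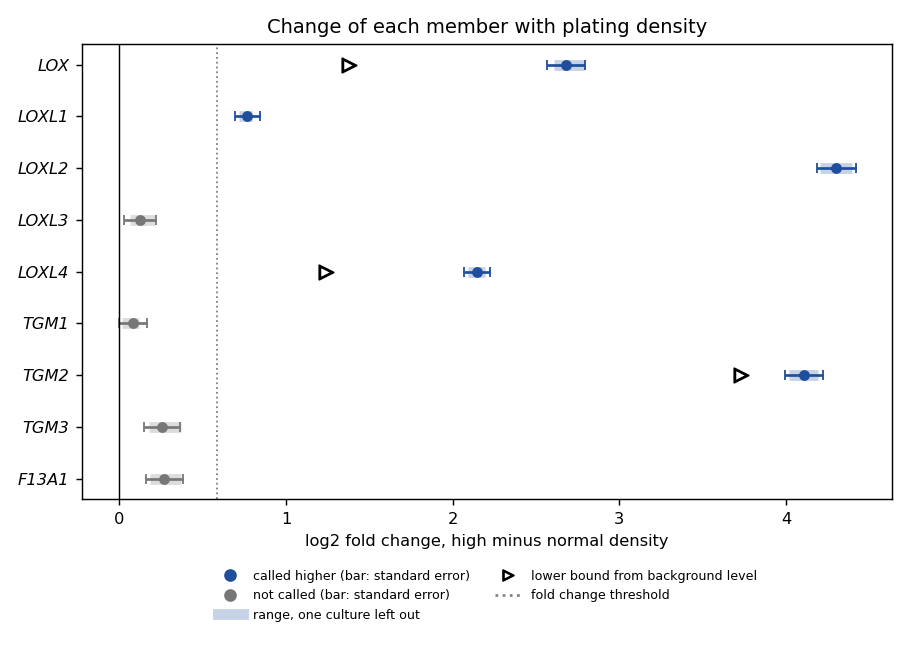
Log2 fold change, high minus normal density, of the 9 genes (horizontal axis) with standard errors, the range obtained with one culture left out at a time (pale bars), the lower bound set by the background level (open triangles) and the fold change threshold of 1.5 (dotted line, drawn on the log2 scale). LOXL2 with 4.30 and TGM2 with 4.11 stand to the right, LOX with 2.68 and LOXL4 with 2.15 follow, and LOXL3, TGM1, TGM3 and F13A1 lie left of the dotted line, the last 3 with both means below the background level.

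The 5 called genes were called with each culture left out in turn. The log2 fold change of LOXL2 then ranged from 4.20 to 4.40, that of TGM2 from 4.02 to 4.19, that of LOX from 2.61 to 2.79, that of LOXL4 from 2.09 to 2.19 and that of LOXL1 from 0.72 to 0.80. High density replicate 2 received the lowest array weight from limma, 0.29 against 0.82 to 1.66 for the other arrays. This culture was the lowest of the high density cultures for LOXL1, LOXL3, TGM1, TGM2 and TGM3 and the highest for LOX and LOXL4. Replicate 1 of the high density group was the lowest for LOX and the highest for LOXL2 and TGM2. The SD was larger at high than at normal density for 7 of the 9 genes and for 18308 of all 26773 transcript clusters.

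The pathway genes were compared by lists written from general knowledge, but with earlier results of these data known. Their counts, shares and adjusted p-values are therefore a description too. Together these lists hold 98 transcript clusters, of which 16 were called higher and 3 lower at high density. The called share was 19.4%, beside 7.49% of all transcript clusters. It was 36.8% for the elastic fibre list, 35% for the TGM2 and factor XIII list and 23.1% for the collagens. It was 14.3% for the hydroxylation list, 8.33% for the maturation list and 0% for the other transglutaminases and the epidermal barrier list. The shares lack a like base, as 51.2% of all transcript clusters were at background at both densities. In the hydroxylation list 0 of 14 were, in the maturation list 1 of 12, and in the lists at 0% 5 of 5 and 14 of 16. The largest rises in these lists were those of IGFBP3 and FBLN1.

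**Figure D3:**
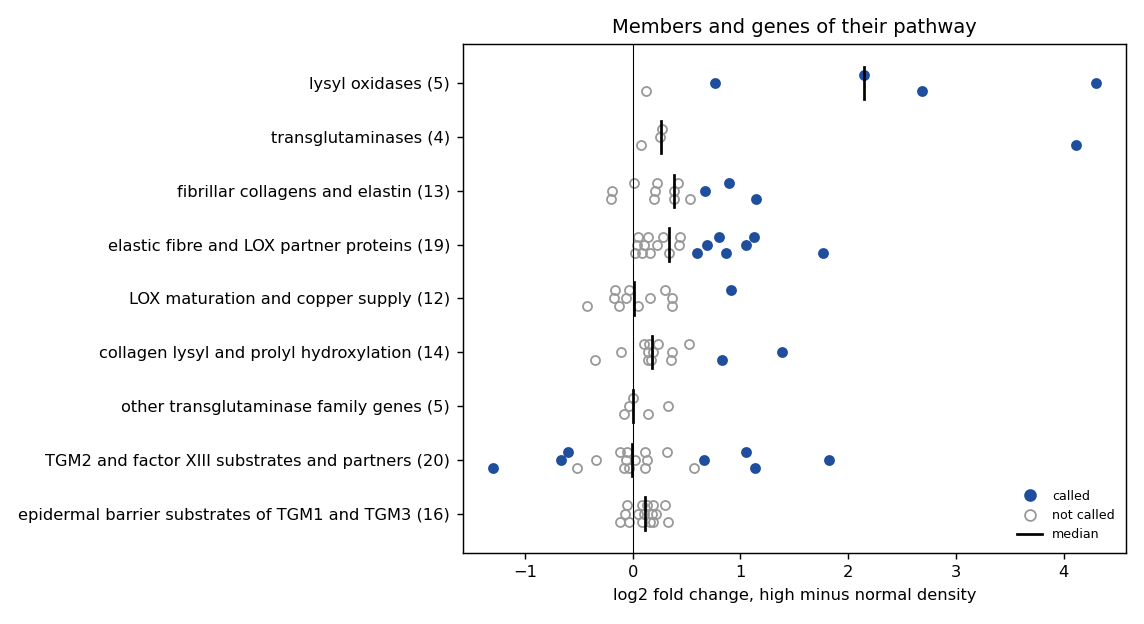
Log2 fold change, high minus normal density (horizontal axis), of each transcript cluster of the lysyl oxidases, the transglutaminases and the 7 pathway lists, with the number of transcript clusters in brackets. Filled symbols were called and open symbols were not, and the black bars are medians. The medians of the pathway lists lie between −0.01 and 0.38.

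Among the substrates of lysyl oxidases, the fibrillar collagens and elastin, 3 of 13 transcript clusters were called, all higher, and the median log2 fold change was 0.38. COL1A1, the main chain of type I collagen, had signals of 6.64, 6.56 and 6.23 at normal density and 7.73, 7.47 and 7.67 at high density. It was up-regulated by 1.15 in log2 signal (SE 0.13, adjusted p = 0.000904 by limma), and the groups were apart. COL5A1, a chain of the type V collagen that regulates fibril diameter, is on the array with transcript clusters 12703720 and 12707220. These rose by 0.90 (SE 0.08, adjusted p = 0.000377 by limma) and by 0.68 (SE 0.08, adjusted p = 0.00137 by limma).

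The partner chain COL1A2 differed by 0.38 (SE 0.08, adjusted p = 0.0165 by limma) and COL3A1 by 0.39 (SE 0.10, adjusted p = 0.0302 by limma), both below the fold change threshold. Elastin itself (ELN) was below the background level in all cultures, with means of 4.10 ± 0.17 and 4.32 ± 0.23 (SD, n = 3). Of the list, 4 transcript clusters were below the background level in both densities.

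Of the 19 transcript clusters for elastic fibre proteins and partners of LOX, 7 were called higher and 0 lower, with a median log2 fold change of 0.34. THBS1, coding for thrombospondin 1, differed by 0.44 (SE 0.07, adjusted p = 0.00423 by limma), below the fold change threshold. FBLN1, a fibulin of elastic fibres and basement membranes, rose most. Its signals were 7.66, 7.57 and 7.39 at normal and 9.36, 9.16 and 9.40 at high density, log2 FC 1.77 with SE 0.10 and an adjusted p = 5.81e-05 from limma.

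FMOD encodes fibromodulin, a collagen-binding proteoglycan that also binds LOX, and rose by 1.13 (SE 0.09, adjusted p = 0.000275 by limma). FN1, coding for fibronectin, which binds LOX and is a substrate of TGM2, rose from 8.76 ± 0.06 to 9.82 ± 0.04 (SD, n = 3), log2 FC 1.06 with SE 0.07 and an adjusted p = 0.000111 from limma. LTBP1, which tethers latent TGF-beta to the matrix, rose by 0.86. MFAP2, FBLN5 and EMILIN2 were called as well, with 0.69, 0.60 and 0.80. The normal density mean of MFAP2 and both means of EMILIN2 were below the background level. Against that level MFAP2 was at least 1.10-fold higher at high density, a bound below the fold change threshold. EMILIN2 was not called by the methods' t-test or among signals above background, and FBLN5 was not called with the arrays shifted to the same median or without high density replicate 1. POSTN, coding for periostin, which promotes the activation of LOX, was at 11.05 and 11.09 and was not called.

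LOX is secreted as a proenzyme that is cleaved by BMP1 and the tolloid-like proteases and needs copper from the secretory pathway. Of the 12 transcript clusters for these steps 1 was called. TLL2, a tolloid-like protease, had signals of 6.97, 7.26 and 6.87 at normal and 8.01, 7.99 and 7.85 at high density and rose by 0.92 (SE 0.11, adjusted p = 0.00148 by limma). BMP1 differed by −0.18 (SE 0.08, adjusted p = 0.190 by limma), and ATP7A, the pump that loads copper onto secreted enzymes, by −0.16 (SE 0.06, adjusted p = 0.124 by limma). The median of the list was 0.01.

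Collagen lysines are hydroxylated and glycosylated before secretion, and this decides which kind of cross-link is formed. In this list 2 of 14 transcript clusters were called, both higher, with a median of 0.18. GLT25D2, a collagen galactosyltransferase, rose by 1.39 (SE 0.11, adjusted p = 0.000191 by limma) from a mean of 4.54, just below the background level, to 5.93. P4HA3, a prolyl 4-hydroxylase subunit, rose by 0.83 (SE 0.08). The lysyl hydroxylase PLOD1 differed by 0.53 (SE 0.08, adjusted p = 0.00398 by limma), below the fold change threshold, and PLOD2 by 0.17 (SE 0.07, adjusted p = 0.160 by limma).

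**Figure D4:**
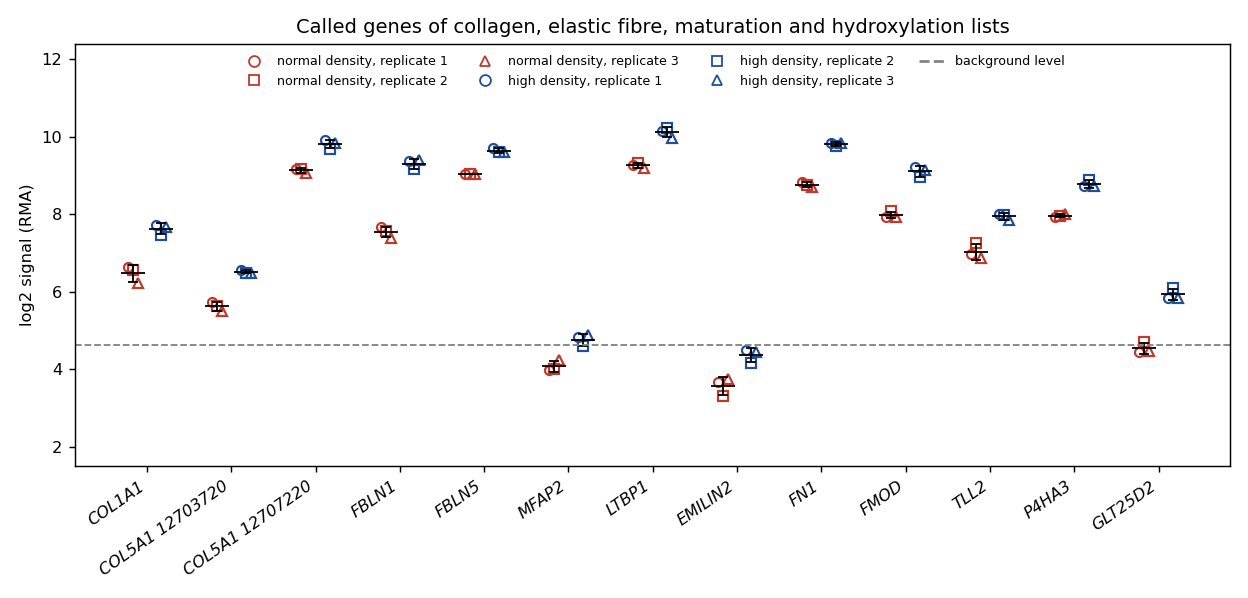
Log2 RMA signal (vertical axis) in each culture for the called transcript clusters of the collagen, elastic fibre, maturation and hydroxylation lists. Symbols, bars (mean and SD, n = 3) and the dashed background level of 4.62 are as for the plot of the 9 genes, and COL5A1 is shown with both of its transcript clusters. All 13 lie higher at high density. The normal density means of MFAP2, EMILIN2 and GLT25D2 are below the dashed line. EMILIN2 stays below it in all cultures, and MFAP2 does so in high density replicate 2 (4.59).

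Of 20 transcript clusters for substrates and partners of TGM2 and factor XIII, 4 were called higher, 3 were called lower and 13 were not called, and the median was −0.01. The largest rise was that of IGFBP3, an IGF-binding protein, from 4.79 ± 0.12 to 6.61 ± 0.07 (SD, n = 3), log2 FC 1.82 with SE 0.08 and an adjusted p = 2.34e-05 from limma. SDC4, a heparan sulfate proteoglycan of the cell surface that binds TGM2 and fibronectin, rose by 1.13 (SE 0.08, adjusted p = 0.000130 by limma), and the protease inhibitor A2M by 0.66. A2M was not called without normal density replicate 3. The remaining rise in this list was that of FN1, given above with the partners of LOX.

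SERPINE2, the protease inhibitor nexin 1, fell from 10.71 ± 0.08 to 9.41 ± 0.09 (SD, n = 3), log2 FC −1.30 with SE 0.08 and an adjusted p = 8.82e-05 from limma. For LGALS3, coding for galectin 3, one transcript cluster (12692561) fell by 0.67 and was called, and the other (12691569) differed by −0.51, below the fold change threshold. FGG, coding for the fibrinogen gamma chain, was called with −0.60 (SE 0.12, adjusted p = 0.0140 by limma). This call was lost in 8 of 15 alternative settings, among them the methods' t-test, a second quantile normalization and the omission of normal density replicate 1 or 3 or high density replicate 1. The integrin ITGB1, a receptor that TGM2 binds, differed by −0.08 (SE 0.08, adjusted p = 0.527 by limma).

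The other measured members of the transglutaminase family, TGM5, TGM6, TGM7, EPB42 and F13B, were below the background level at both densities. Of these 5 transcript clusters 0 were called by limma or by the methods' t-test, and 1, TGM6, had an unadjusted p-value below 0.05. TGM6 differed by 0.33 (SE 0.12, adjusted p = 0.0974 by limma). Of the 16 transcript clusters for epidermal barrier proteins, the usual substrates of TGM1 and TGM3, 14 were below the background level at both densities. The other 2 were S100A10 and S100A11, which are also expressed outside the epidermis. By limma and by the methods' t-test 0 of the 16 were called, and 3 had an unadjusted p-value below 0.05 in limma.

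Markers of other cell types were looked up beside these results. Of the granulosa cell markers all 10 were above the background level in at least one density, and 5 were called lower, among them CYP19A1 and FSHR, and 1, HSD17B1, higher. All 8 fibroblast markers were above the background level in either density, and 4 were called higher, namely THY1, PDGFRB, COL1A1 and FBLN1, of which COL1A1 and FBLN1 also belong to the pathway lists. The summed linear signal of the fibroblast list was between 5584 and 5732 at normal density and between 6683 and 6812 at high density. The other 4 were not called, namely the abundant DCN and LUM with 0.17 and 0.01, PDGFRA with 0.32 and COL3A1 with 0.39. In 7 of the 8 fibroblast markers the groups did not overlap, with high density above, beside 17.8% of all transcript clusters. In 9 of the 10 granulosa markers the groups did not overlap in either direction, beside 37.3%. The median log2 fold change was 0.66 for the fibroblast and −0.48 for the granulosa list, beside 0.02 over all transcript clusters. Of all transcript clusters 3.97% were called higher and 3.51% lower. These shares lack a like base, as 51.2% of all transcript clusters were at background at both densities. The part of the fibroblast markers in the changes of the lysyl oxidases and TGM2 was not tested. In RNA of whole cultures, more cells of a type and more RNA per cell cannot be told apart.

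The theca marker CYP17A1 was at 2.93 and 2.92, below the background level, while INSL3 and COL15A1 of the same list were called higher. The summed signal of the 6 theca markers was between 795 and 809 at normal and between 1017 and 1137 at high density. This sum mostly follows the strongest signals of the list. These were INSL3, with means of 7.20 and 9.02, and STAR, which fell from 9.03 to 8.54 and was not called. All 8 measured markers of macrophages and leukocytes and all 6 of platelets were below the background level in both group means, as was F13A1. Of the endothelial list 1 of 7 (VWF) and of the surface and epidermal epithelium list 1 of 9 (MSLN) were above it, and 0 genes of these 4 lists were called by limma or by the methods' t-test. Unadjusted p-values below 0.05 were found for 2 macrophage and leukocyte, 0 platelet, 3 endothelial and 1 epithelial markers in limma.

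For each called gene, the transcript clusters with the most similar course over the 6 cultures were sought outside the 9 genes. Only those with a gene symbol and the higher group mean above the background level were searched, and members were not compared with each other. Similarity was the Euclidean distance between log2 signals centred on their mean, so that the size of the density difference weighs most, and the values are a description. Among these, the nearest to LOXL2 was KRT18, a keratin of simple epithelia, at a distance of 0.39. Its means were 4.75 ± 0.40 and 9.04 ± 0.11 (SD, n = 3), and the cytokine IL33 followed at 0.75. KRT18 was also nearest to TGM2, at 0.69, followed by NRN1, coding for neuritin, at 0.71. LOX was closest to TMEM150C at 0.27 and to the tight junction gene CLDN5 at 0.30. LOXL4 was closest to C27H8orf4 at 0.19 and to coagulation factor F5 at 0.20, and LOXL1 to PPP1R3B at 0.09 and to the cell cycle inhibitor CDKN2D at 0.10. The normal density means of TMEM150C (4.33), IL33 (4.36) and NRN1 (3.35) were below the background level, as were those of LOX, LOXL4 and TGM2. Distances that involve these genes rest in part on signals at background.

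The genes next to the members on the chromosome, as RefSeq orders protein-coding genes on the assembly ARS-UCD2.0, were looked up as well. Of 15 neighbouring transcript clusters that were found on the array by symbol or synonym, 1 was called, beside 7.49% of all transcript clusters. The median log2 fold change of the 15 was 0.01. The measured neighbour of LOXL2, ENTPD4, differed by 0.21 (SE 0.06, adjusted p = 0.0622 by limma), and that of TGM2, RPRD1B, by −0.15 (SE 0.07). LOX stands next to SRFBP1 with 0.15, and LOXL4 between R3HCC1L with −0.38 and PYROXD2 with −0.04. The called neighbour was NRN1, which lies beside F13A1. NRN1 rose from 3.35 ± 0.14 to 7.14 ± 0.30 (SD, n = 3), log2 FC 3.79 with SE 0.15 and an adjusted p = 1.78e-05 from limma, with its normal density mean below the background level, while F13A1 beside it and LY86 on the other side stayed below the background level.

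**Figure D5:**
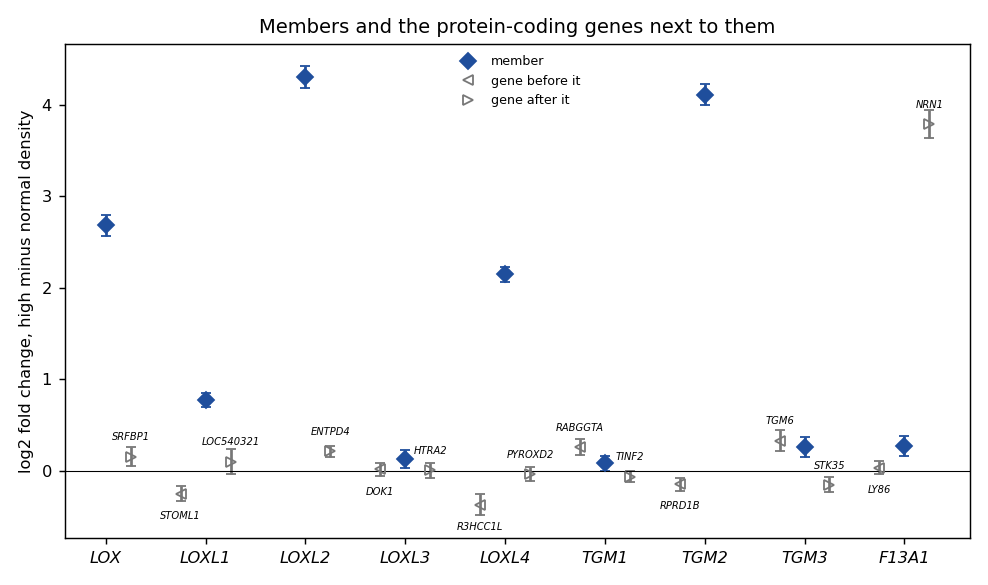
Log2 fold change, high minus normal density (vertical axis, bars are standard errors), of each of the 9 genes (blue diamonds) and of the protein-coding genes before and after it in the reference gene order (open grey triangles). Neighbours without a match on the array are not drawn. NRN1 beside F13A1 is at 3.79, and all other neighbours lie between −0.38 and 0.33.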

How the data were processed

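The authors scanned 1 Affymetrix array per culture and processed the scans in Expression Console with RMA (background reduction, normalization, gene-level summary). The values deposited are log2 signals of 6 cultures, used unaltered, and 0 columns belong to other samples. Probe positions and genome build are not given in the sources used here. The fit across all 26773 transcript clusters used lmFit and eBayes of limma 3.58.1 (R 4.3.3) with Benjamini-Hochberg adjustment. The number of arrays limits the precision. The p-values and standard errors rest on the spread between 3 cultures per density, with each variance drawn by eBayes toward a value estimated over all transcript clusters.

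The members, gene lists and tests were chosen with earlier results of these data known. Named genes are all members, the 2 nearest profiles outside the members per called member, up to 3 rises and 3 falls per list, and genes singled out by their role. Other called list genes, unchanged partners, markers and chromosomal neighbours are not covered by that rule and were picked with their values in view. Rows with several symbols, 196 in number, were left out of the lists. List genes without a match were LTBP4, P3H3, TGM4, ADGRG1, FLG, SPRR1A, SPRR1B, SPRR2A and MRC1. The mRNA accessions of 5 of the 9 members matched the same symbol in RefSeq. A lower bound compares the higher mean with the mean of the lower group after raising each of its signals to the background level. Planned comparisons of protein and promoter sequences were not made. The fit was tested on simulated data. Alternatives were the ordinary t-test, eBayes with a trend and robust variances, the replicate number as a block, array weights and median shifts. Others were a second quantile normalization, a filter at the background level, other thresholds and leaving out each culture. Plots were made in Python 3.11.15 (matplotlib 3.10.9).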

Additional observations from a re-analysis of the deposited data

How the results depend on the processing

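The number of members called was 5 in 14 of 15 alternative settings and 4 with a fold change threshold of 2, where LOXL1 was lost. With that threshold 651 of all transcript clusters were called in place of 2005, and 8 of the 19 called transcript clusters of the pathway lists were kept, which follows from the stricter threshold. With one culture left out at a time these counts were between 5 and 5, between 1848 and 2434 (highest with high density replicate 2 omitted), and between 17 and 20. Of the 19 list calls, 15 were kept in all alternatives other than that threshold, and FGG, FBLN5, EMILIN2 and A2M were lost in at least one of them. The replicate number as a block gave 2020 calls in all, 5 members and 19 list calls. Deviations of cultures with the same number correlated at 0.05, −0.05 and −0.04 over all transcript clusters, so the data gave no basis for a pairing and none was used. Whether these cultures shared a cell pool is not stated. No log2 fold change of a member changed its sign or moved by more than the SD pooled over both densities in the alternative fits, but TGM1, TGM3 and F13A1 have no value under the filter at the background level. With one culture left out the differences in log2 signal ranged from 0.07 to 0.22 for LOXL3, from 0.02 to 0.12 for TGM1, from 0.17 to 0.37 for TGM3 and from 0.18 to 0.37 for F13A1. The lower bounds depend on the percentile of the control rows. With the 90th percentile the log2 bound was 1.88 for LOX and 1.74 for LOXL4, with the 99th percentile it was 1.07 for LOX, 0.93 for LOXL4 and 3.43 for TGM2, against 1.38, 1.24 and 3.73 with the 95th. At the 99th percentile level of 4.92 LOXL1 also has a bound, 0.68, as its 3 normal density signals are then at background, as is 1 of LOXL2.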

Other observations

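Some marker genes of cell types other than GC were also up-regulated at high density. COL15A1, a basement membrane collagen, had means of 4.58 ± 0.10 and 6.46 ± 0.14 (SD, n = 3) and was 1.87 higher in log2 signal (SE 0.10, adjusted p = 3.80e-05 by limma). As its normal density mean was below the background level, it was at least 3.51-fold higher against that level. For this gene no bound at another percentile was computed. INSL3, a peptide hormone of theca cells, was 1.82 higher (SE 0.09, adjusted p = 3.88e-05 by limma). THY1, a surface protein of fibroblasts, was 1.71 higher (SE 0.10, adjusted p = 8.10e-05 by limma) and PDGFRB, a receptor of mesenchymal cells, 0.94 higher (SE 0.10, adjusted p = 0.000811 by limma). In each of these 4 genes all 3 high density cultures exceeded all 3 normal density cultures, as in 17.8% of all transcript clusters. The 4 genes were picked with their changes in view, so nothing is read from this separation. Several other markers of the same lists were not called. STAR, which carries cholesterol into mitochondria, differed by −0.49 in log2 signal (SE 0.09, adjusted p = 0.0105 by limma) with groups that did not overlap, below the fold change threshold. NR2F2 differed by −0.07, and CYP17A1 was below the background level. The fibroblast markers DCN, LUM, PDGFRA and COL3A1 differed by 0.17, 0.01, 0.32 and 0.39.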
